A study of Mus musculus with 6 samples.

Results

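Dhrs9 encodes a short-chain dehydrogenase/reductase that oxidises retinol to retinal and also acts on steroids, and it is described here with 8 other genes of retinoid metabolism in C2C12 cells, an established mouse myoblast line. The 9 genes were taken by symbol: Dhrs9, Dhrs3, Rdh10, Aldh1a1, Aldh1a2, Aldh1a3, Crabp1, Crabp2 and Cyp26b1, out of 23154 genes in the count tables. Dhrs9 was selected on its read counts, which were much higher in the HA-NUR77 than in the GFP libraries, so its difference between the groups is given as a description with no test. The other members were chosen for their place in the pathway, with earlier results of these data known.

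The series measured poly(A) RNA by stranded RNA-seq in 2 groups of 3 libraries. One group carried the doxycycline-inducible construct pINDUCER20b-HA-NUR77, which encodes the orphan nuclear receptor NUR77 (gene Nr4a1) with an HA tag, and the control group carried pINDUCER20b-GFP. Both were stable C2C12 lines, and both received doxycycline at 1 µg/mL for 18 h, starting 24 h after seeding. Per the labels' protocols, 1 dish of the stable line was seeded per replicate, and whether a line was a clone or a pool is not given. The construct and the line that carries it cannot be told apart, and p-values measure the spread between dishes, which may be technical. No library from cells without doxycycline was analysed here, and the labels name no added retinoid.

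Library totals ran from 13906096 to 22821446 counts, and 12509 genes had enough reads to be tested. Of these, 12.4% were higher and 13.2% lower in HA-NUR77 at an adjusted p under 0.05 (edgeR quasi-likelihood test, Benjamini-Hochberg), and the median log2 difference over all tested genes was 0.01. In 45.6% of tested genes the 3 HA-NUR77 values did not overlap the 3 GFP values. Same-numbered libraries of the 2 groups deviated together, and a fit that added the number as a blocking term (the replicate block) called 23.5% of genes higher and 24.6% lower. Reads on the endogenous mouse Nr4a1 gene did not separate the groups, at 22.5 ± 3.03 (SD, n = 3) against 20.4 ± 7.43 depth-normalised counts (CPM), with an edgeR adjusted p of 0.698. The species and codon sequence of the insert are not given in the labels, so this does not check them. Of the muscle markers examined, the 7 myoblast markers summed to 5730 to 6520 CPM in HA-NUR77 and 3640 to 4830 in GFP, and the 8 markers of differentiating muscle to 13000 to 15700 and 8440 to 12500. Of these, Cdh15 and Itga7 (2 of 7) and Myh3 (1 of 8) passed the edgeR test, at log2 differences of 0.54, 0.72 and 0.62. The most abundant, Des and Acta1, did not. Myf5 (-0.23), Pax7 (-0.28), Vcam1 (-0.43), Mef2c (-0.55), Mymx (-0.09) and Myog (-0.0) did not rise, and none of them passed. The rest had positive log2 differences. With the replicate block 4 of the 7 were called higher and 1, Myf5, lower. Of the 8, 5 were called higher and 1, Mef2c, lower. Des and Acta1 were among the higher (edgeR adjusted p = 0.000454 and 0.000179). The Myh3 call held in 3 of 6 fits that left out 1 library. The fibroblast and mesenchymal markers summed to 654 to 815 and 512 to 560 CPM, and the epithelial ones to 0.917 to 1.5 and 2.47 to 3.08. Among them Ly6a (1.21) and Dpt (1.5) rose and Pdgfra (-0.98), Pi16 (-0.57) and Cdh1 (-1.23) fell on the log2 scale, while Thy1, Epcam, Krt18 and Krt5 had no read. Markers of adipocytes had no read, and those of leukocytes and endothelium summed to under 4 CPM in every library. Of these, Csf1r, a macrophage marker, was higher, with 78 reads in HA-NUR77 and 19 in GFP (log2 1.71, edgeR adjusted p = 0.0443), a call that held in 2 of 6 fits that left out 1 library. Among the other leukocyte markers, Cd68 had 44 reads in HA-NUR77 and 26 in GFP and did not pass (edgeR adjusted p = 0.32). The rest had too few reads to test. Lyz2 had 26 reads in HA-NUR77 and 12 in GFP, Itgam 31 and 44, Ptprc 3 and 3, and Adgre1 1 and 0. The part of the shifts in marker levels in the results that follow was not tested, and in bulk RNA fewer cells of a type and less RNA per cell cannot be told apart.

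Retinoic acid, the active form of vitamin A, is made from retinol in a pair of oxidation steps. Short-chain dehydrogenases such as RDH10 and DHRS9 oxidise retinol to retinal, DHRS3 runs that step in reverse, and the ALDH1A enzymes oxidise retinal to retinoic acid. CRABP proteins bind retinoic acid in the cytoplasm, CYP26 enzymes break it down, and the receptors RAR and RXR bind DNA as pairs at direct repeats of a short hexamer. NUR77 binds as a monomer to an extended hexamer known as the NBRE, and it can also pair with RXR.

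The DNA just before the Dhrs9 start site is shown because Dhrs9 is the gene chosen for its rise, and 2 short stretches from other genes of the pathway show what a repeat of the kind bound by retinoic acid receptors looks like. The letters come from RefSeq promoter windows on GRCm38.p6, which run from 250 bases before to 50 bases after a start site. The Dhrs9 stretch is chr2:69380212-69380461 on the + strand, the 250 bases before the start site, with the hexamer AGGTCA in capitals where it lies on the opposite strand. The Cyp26a1 stretch is chr19:37697770-37697798 on the + strand and the Rarb stretch chr14:16575507-16575535 on the - strand, with the whole direct repeat in capitals.
Dhrs9: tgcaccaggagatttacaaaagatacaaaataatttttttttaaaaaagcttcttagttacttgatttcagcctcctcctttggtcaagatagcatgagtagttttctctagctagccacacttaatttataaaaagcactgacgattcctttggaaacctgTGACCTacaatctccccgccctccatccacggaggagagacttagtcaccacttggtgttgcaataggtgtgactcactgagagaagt
Cyp26a1: taaagaTGAACTTTGGGTGAACTaatttg
Rarb: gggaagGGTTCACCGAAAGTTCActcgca

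Both strands of every window were searched for the NBRE (AAAGGTCA), for the hexamer AGGTCA, with which the NBRE ends, and for direct repeats of the hexamers AGGTCA or AGTTCA with 1, 2 or 5 bases between them. The Dhrs9 window held 1 AGGTCA, from 88 to 83 bases before the start site on the opposite strand, and no NBRE and no such repeat. An AGGTCA was found in 16.3% of all 32851 windows and an NBRE in 1.51%. Windows existed for 6 of the 9 members, and none was found for Rdh10, Aldh1a3 or Crabp2. In the 9 windows of those 6 genes, Dhrs9 held the only AGGTCA, with 0 NBRE and 0 repeats. The wider list below had 68 windows for 48 of its 63 genes, of which 6 held an NBRE and 15 an AGGTCA. Of its genes with an NBRE, only Rxra had enough reads to be tested. A repeat with 5 bases between stood in 0.0396% of all windows, the Cyp26a1 window among them. The share was 0.0974% with GGGTCA and GGTTCA added to the hexamers, a choice made after the windows had been seen. With these added, the Rarb window also held 1. A match of letters is a description and says nothing of binding in these cells.

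Among the enzymes that interconvert retinol and retinal, Dhrs9 had the largest fitted difference. It lies on chromosome 2 from 69380445 to 69404533 on the + strand (GRCm38, GENCODE M21), with 4281 bases of exon. The 3 HA-NUR77 libraries held 297, 184 and 166 Dhrs9 reads, and the 3 GFP libraries 13, 21 and 15. Scaled to depth these were 15.4, 8.03 and 11.9 CPM against 0.771, 1.44 and 1.01 CPM. Every HA-NUR77 library lay well above every GFP library, and the HA-NUR77 libraries were spread more widely than the GFP libraries. The means were 11.8 ± 3.66 and 1.08 ± 0.34 CPM (SD, n = 3 each), a fitted difference of 3.45 on the log2 scale, or 11.0-fold. This is the value on which the gene was selected. Of the 12509 tested genes it ranked 17, between Gngt2 at 3.46 and Ifi27l2a at 3.30.

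The size of the Dhrs9 difference varied among same-numbered libraries. The log2 ratios within numbers 1, 2 and 3 were 4.32, 2.48 and 3.55, so the HA-NUR77 library with the lowest Dhrs9 level shared its number with the GFP library with the highest. Leaving out 1 library at a time gave log2 differences between 3.21 and 3.72.

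**Figure D1:**
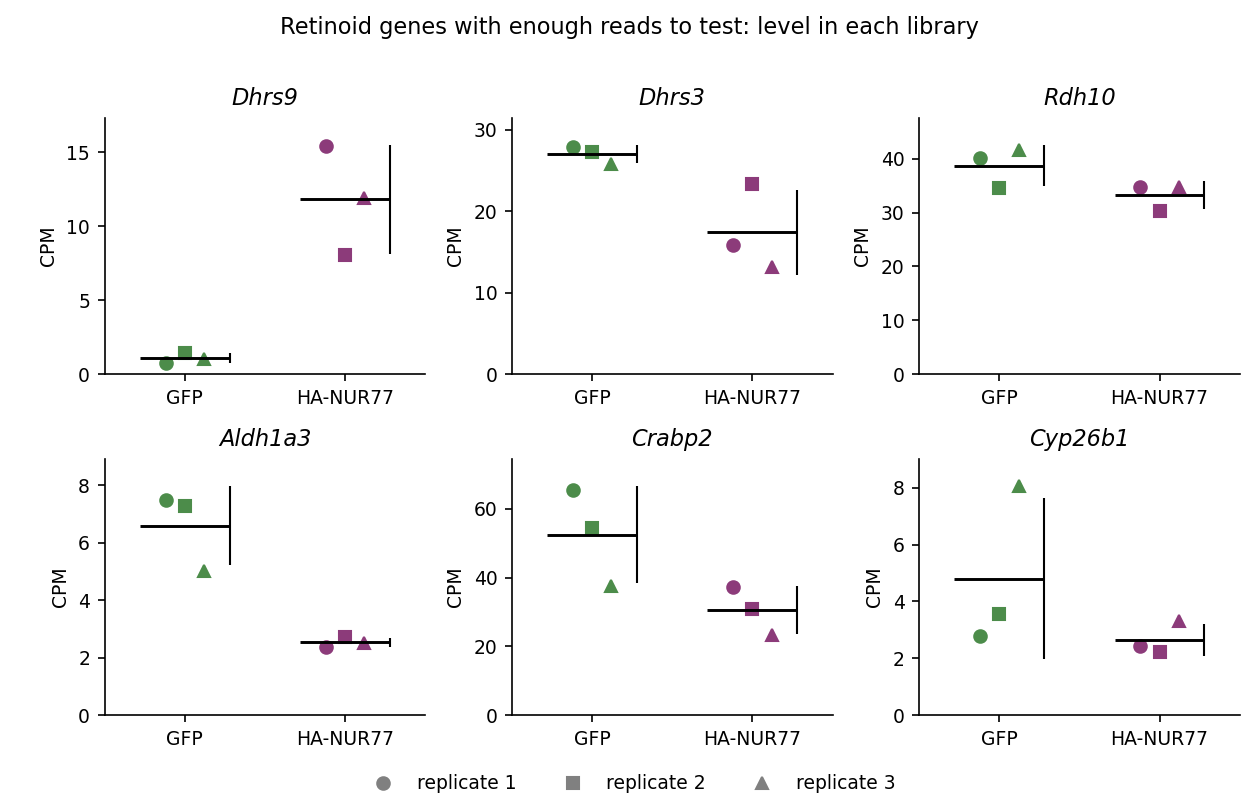
Each panel shows 1 member, with CPM on a linear axis from 0, 1 point per library (GFP green, HA-NUR77 purple, shapes for replicates), a horizontal line at each group mean and a vertical bar of ± 1 SD; Dhrs9 stands at 8.03 to 15.4 CPM in HA-NUR77 and 0.771 to 1.44 CPM in GFP. Aldh1a3 and Crabp2 lie lower in all 3 HA-NUR77 libraries than in any GFP library, while Rdh10 and Cyp26b1 overlap.

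Dhrs3 encodes the enzyme that reduces retinal back to retinol, and it is a well-known target that retinoic acid induces. The gene lies on chromosome 4 from 144892827 to 144928209 on the + strand. Dhrs3 stood at 15.9, 23.3 and 13.1 CPM in HA-NUR77 (308, 533 and 182 reads) and at 27.9, 27.3 and 25.8 CPM in GFP (471, 398 and 381 reads). The groups did not overlap, the GFP libraries lay close together, and HA-NUR77 replicate 2 came nearest to them. The log2 difference was -0.62 (SE 0.19, 95% interval -1.07 to -0.17), and its adjusted p of 0.0505 in edgeR's quasi-likelihood test fell just short of the threshold. With the replicate block the difference was -0.65 and passed, at an edgeR adjusted p of 0.00469. Dhrs3 also passed with DESeq2 (adjusted p = 0.014), limma-voom (adjusted p = 0.0436) and DESeq2 size factors (edgeR adjusted p = 0.0494). Of the 6 fits that left out 1 library, it passed in 1. That fit was without HA-NUR77 replicate 2, at -0.89 with an edgeR adjusted p of 0.00425. In the other such fits the edgeR adjusted p was above the threshold, up to 0.148. Dhrs3 also did not pass with no filter on low counts or a minimum count of 30. Nor did it pass with library totals only or upper-quartile factors.

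Rdh10 encodes the main retinol dehydrogenase of the embryo. The gene lies on chromosome 1 from 16105774 to 16133734 on the + strand. Its level was 34.8, 30.2 and 34.7 CPM in HA-NUR77 and 40.1, 34.5 and 41.7 CPM in GFP. The groups overlapped, because GFP replicate 2 lay just under 2 of the HA-NUR77 libraries. The log2 difference was -0.22 (SE 0.10, 95% interval -0.45 to 0.01; edgeR adjusted p = 0.133), and with the replicate block it was -0.22 with an edgeR adjusted p of 0.0166. Each HA-NUR77 library was lower than its same-numbered GFP library, by log2 ratios of -0.2, -0.19 and -0.27.

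Scaled by exon length, the 3 enzymes could be set side by side as levels. In GFP, Dhrs3 and Rdh10 stood at 9.23 ± 0.38 and 9.31 ± 0.911 CPM per kb (SD, n = 3), closer to each other than their spread, and Dhrs9 was at 0.251 ± 0.0793. In HA-NUR77 the order of the means was Rdh10 at 7.99 ± 0.631, Dhrs3 at 5.95 ± 1.8 and Dhrs9 at 2.75 ± 0.856 CPM per kb. In HA-NUR77 replicate 2, though, Dhrs3 lay above Rdh10. Dhrs9 was the lowest of the 3 in every library of both groups. Its share of the summed length-scaled reads of the 3 genes was 20.6%, 11.0% and 17.9% in HA-NUR77 and 0.93%, 1.88% and 1.24% in GFP. Dhrs3 made up 35.5% ± 9.65 and 49.2% ± 2.9, and Rdh10 48.0% ± 5.5 and 49.5% ± 3.22, in HA-NUR77 and GFP. These shares contain the value that selected Dhrs9 and were not tested.

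**Figure D2:**
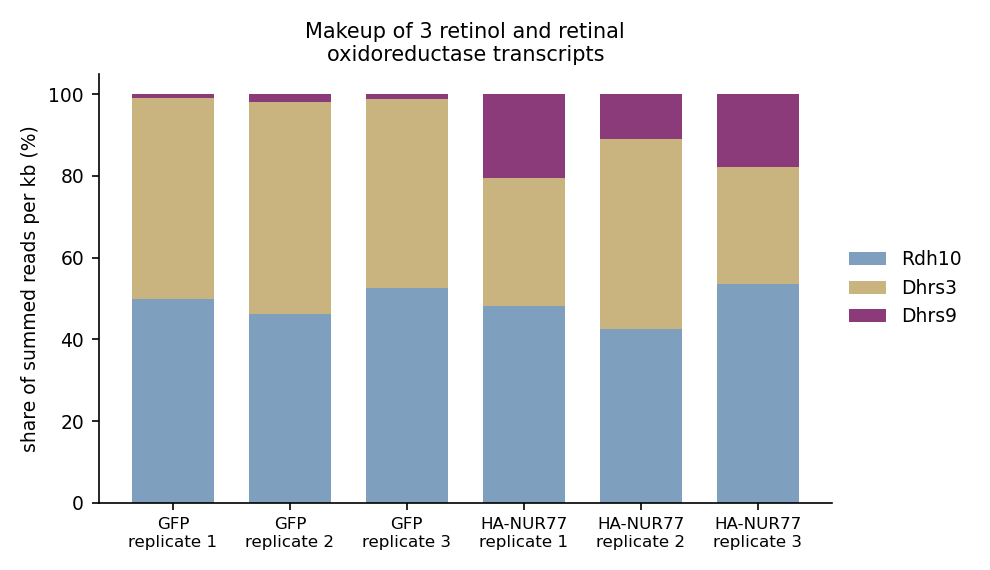
Stacked bars give, for each library, the percent of summed length-scaled reads that came from Dhrs9, Dhrs3 and Rdh10. Dhrs9 takes 11.0% to 20.6% of the bar in HA-NUR77 and 0.93% to 1.88% in GFP, and Rdh10 stays near a mean of 48.0% and 49.5%.

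Of the ALDH1A enzymes, which make retinoic acid from retinal, Aldh1a3 accounted for nearly all reads, and it fell. Aldh1a3 lies on chromosome 7 from 66390890 to 66427517 on the - strand. It stood at 2.38, 2.71 and 2.51 CPM in HA-NUR77 (46, 62 and 35 reads) and at 7.47, 7.28 and 5.01 CPM in GFP (126, 106 and 74 reads). The HA-NUR77 libraries were nearly equal, and even the lowest GFP library, replicate 3, was well above them. The log2 difference was -1.38 (SE 0.20, 95% interval -1.83 to -0.92), 2.59-fold lower, with an edgeR adjusted p of 0.00337. Leaving out 1 library at a time kept the call in 6 of 6 fits, with edgeR adjusted p between 0.0023 and 0.021.

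Aldh1a1 and Aldh1a2 had too few reads to test. Aldh1a1, on chromosome 19 from 20492715 to 20643465 on the + strand, had 3, 3 and 4 reads in HA-NUR77 and 0, 3 and 2 in GFP, a depth-scaled ratio of 1.66 whose exact 95% interval of 0.516 to 6.18 covers counting error only. Aldh1a2, the main retinoic acid-making enzyme of the early embryo, lies on chromosome 9 from 71215789 to 71296243 on the + strand and had no read in any of the 6 libraries. A count of 0 allows up to 3 counts, which is 0.0293 CPM over the 6 libraries. Aldh1a3 gave 94.3%, 95.7% and 90.3% of the family's length-scaled reads in HA-NUR77 and 100%, 97.4% and 97.5% in GFP. These shares did not overlap between the groups, and the two-sided exact permutation p was 0.1, the smallest that 3 against 3 allows.

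Of the binding proteins, Crabp2, which carries retinoic acid to its receptors, was the most abundant member per length in both groups and fell. It lies on chromosome 3 from 87948666 to 87953376 on the + strand. Crabp2 stood at 37.2, 31.0 and 23.3 CPM in HA-NUR77 (720, 711 and 325 reads) and at 65.4, 54.5 and 37.6 CPM in GFP (1102, 793 and 556 reads). The groups only just failed to overlap, with HA-NUR77 replicate 1 just under GFP replicate 3, and replicate 3 was the lowest in each group. The log2 difference was -0.78 (SE 0.23, 95% interval -1.31 to -0.25), 1.71-fold lower, with an edgeR adjusted p of 0.0424.

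That call of Crabp2 was near the threshold. Leaving out HA-NUR77 replicate 1, 2 or 3 ended it (edgeR adjusted p = 0.0554, 0.0841 and 0.098), as did leaving out GFP replicate 1 (0.145) or 2 (0.0946) and testing without the filter on low counts (0.144). It held only without GFP replicate 3, at 0.0158. Within same-numbered libraries the log2 ratios were -0.81, -0.81 and -0.69, nearly equal, and with the replicate block the edgeR adjusted p was 1.9e-06. Crabp1, a related protein linked to retinoic acid turnover, lies on chromosome 9 from 54764748 to 54773110 on the + strand. It had 1, 0 and 2 reads in HA-NUR77 and none in GFP, too few for a fold.

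Cyp26b1 encodes an enzyme that oxidises retinoic acid for removal. It lies on chromosome 6 from 84571414 to 84593908 on the - strand. Its level was 2.43, 2.23 and 3.30 CPM in HA-NUR77 and 2.79, 3.57 and 8.05 CPM in GFP. The groups overlapped, and GFP replicate 3 was more than double any other library. The log2 difference was -0.87 (SE 0.41, 95% interval -1.81 to 0.08; edgeR adjusted p = 0.152), and leaving out 1 library at a time moved it between -1.15 and -0.28. With the replicate block it was -0.77 with an edgeR adjusted p of 0.0109.

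Counted together, 5 of the 8 members other than Dhrs9 passed the filter on low counts. Of these, 2 fell (Aldh1a3 and Crabp2), 3 did not pass the test and 0 rose in edgeR's quasi-likelihood test. At an unadjusted p under 0.05 the count of rises was also 0, as it was with DESeq2 and limma-voom, and 3 were lower by each of these 3 counts. The 5 genes had a median log2 difference of -0.78, beside 0.01 over all tested genes and a background of 13.2% called lower. With the replicate block all 5 were called lower, beside a background of 24.6%. Groups did not overlap for 3 of the 5, beside 45.6% of all tested genes. Lower values in every same-numbered pair were seen for 5 of the 5. The share of all tested genes with 1 direction in every pair was not computed. In the wider list below, 17 of 21 genes with a lower mean and 13 of 15 with a higher mean kept their direction. Dhrs9, the other member kept by the filter, had a higher mean in HA-NUR77, the value on which it was chosen.

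**Figure D3:**
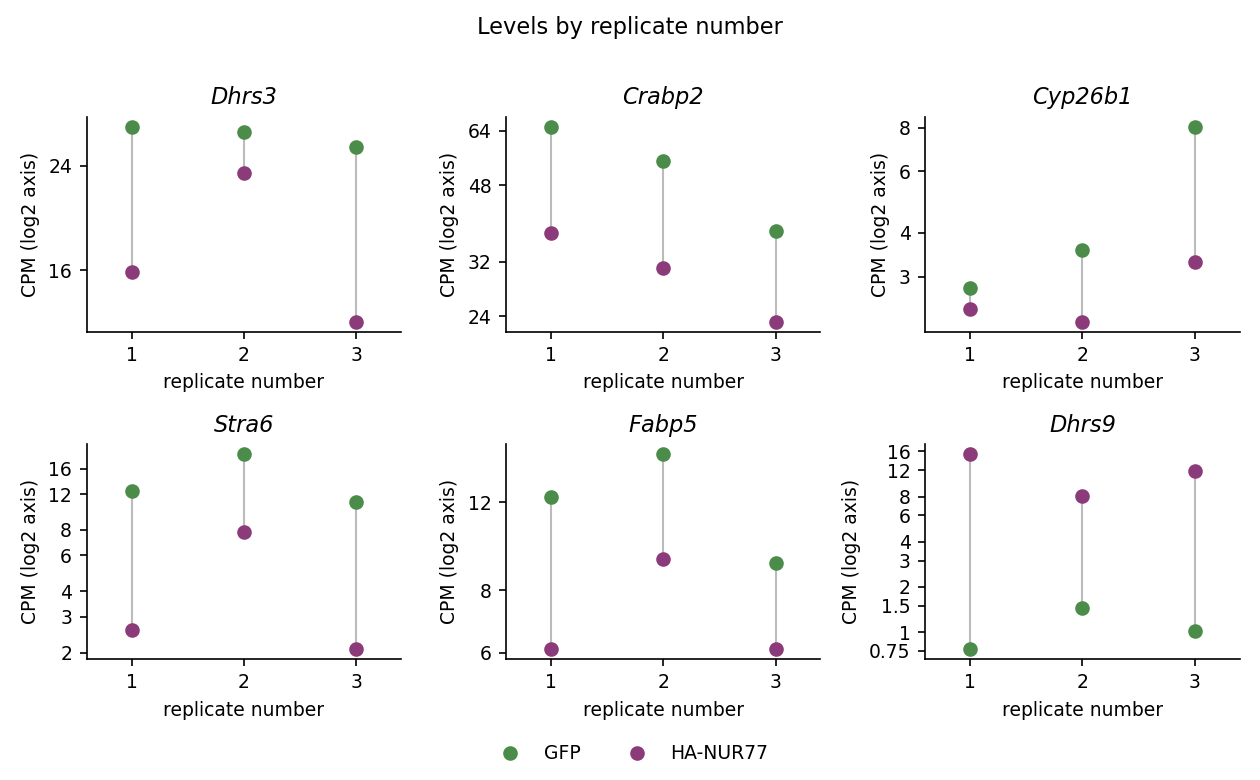
CPM on a log2 axis against replicate number for Dhrs3, Crabp2, Cyp26b1, Stra6, Fabp5 and Dhrs9, with a line joining the HA-NUR77 (purple) and GFP (green) library of the same number. For Crabp2 both groups are highest at number 1 and lowest at number 3 and the gap is nearly constant (log2 ratios -0.81, -0.81 and -0.69), while for Cyp26b1 the gap runs from -0.2 to -1.29.

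The wider pathway was examined in a list of 63 other genes, from uptake to receptors and responsive genes. Of these, 61 were in the count tables and 36 could be tested: 4 rose, 7 fell and 25 did not pass (edgeR quasi-likelihood test). That is 30.6% called, beside 25.6% of all tested genes, and the median log2 difference was -0.05 beside 0.01. The block called 11 higher and 12 lower, beside 23.5% and 24.6% of all tested genes. Of the genes in the list, 9 had no read in any library, Lrat and Rbp2 of retinol storage among them.

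In uptake and storage, 4 genes were tested, 2 of which fell and 0 of which rose by edgeR, at an unadjusted p under 0.05, by DESeq2 or by limma-voom. Over all tested genes, edgeR called 13.2% lower and 12.4% higher. Stra6, the membrane receptor that takes up retinol from its plasma carrier, stood at 2.59, 7.86 and 2.08 CPM in HA-NUR77 and at 12.5, 18.9 and 11.0 CPM in GFP. Stra6 was highest in replicate 2 of both groups, and the groups did not overlap. It fell by a log2 difference of -1.70 (SE 0.47), with an edgeR adjusted p of 0.0343. The Stra6 call ended when HA-NUR77 replicate 1 (edgeR adjusted p = 0.104) or 3 (0.071) was left out, when GFP replicate 1 (0.0855) or 2 (0.0906) was, and without the filter (0.149). With the replicate block the Stra6 difference was -1.80, at an edgeR adjusted p of 0.00027.

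Among the other dehydrogenases and reductases, 9 were tested, 2 rose and 0 fell in edgeR's test, and 0 fell at an unadjusted p under 0.05, by DESeq2 or by limma-voom. Rdh5, best known as the 11-cis-retinol dehydrogenase of the eye, was at 12.8, 11.6 and 11.7 CPM in HA-NUR77 and at 7.47, 6.45 and 7.78 CPM in GFP. Its 3 HA-NUR77 libraries lay above all GFP libraries, with a log2 difference of 0.73 (SE 0.12; edgeR adjusted p = 0.00508). Dhrs7b, whose product is better known for ether lipid synthesis than for retinoids, rose from 22.5 ± 2.05 to 29.9 ± 0.369 CPM (log2 0.41, edgeR adjusted p = 0.0142). That Dhrs7b call ended without HA-NUR77 replicate 1 (0.0552), and likewise when GFP replicate 1 was left out (0.0536). The 2 of 9 stand beside 12.4% of all tested genes called higher, and the 6 of 9 called higher with the block beside 23.5%. Rdh12 had 28 reads in HA-NUR77 and 9 in GFP and was not tested, with a ratio of 2.58 and an exact 95% interval of 1.18 to 6.21.

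Aox1, an aldehyde oxidase that accepts retinal among many substrates, was the 1 gene tested of its list beside the ALDH1A family. It stood at 12.9, 15.5 and 16.5 CPM in HA-NUR77 and at 27.5, 25.0 and 30.4 CPM in GFP. All HA-NUR77 libraries were lower, and the log2 difference was -0.88 (edgeR adjusted p = 0.00262). Per kb, Aox1 at 3.18 ± 0.31 CPM was above Aldh1a3 at 1.43 ± 0.297 CPM in the GFP libraries, and at 1.73 ± 0.214 it was above Aldh1a3 at 0.549 ± 0.0358 in HA-NUR77.

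Fabp5, a fatty-acid binding protein that also carries retinoic acid, was at 6.10, 9.26 and 6.10 CPM in HA-NUR77 and at 12.3, 15.0 and 9.07 CPM in GFP. HA-NUR77 replicate 2 reached just above GFP replicate 3, so the groups overlapped. The log2 difference of Fabp5 was -0.75 with an edgeR adjusted p of 0.0518, and with the block the adjusted p was 0.000232. Of the other CYP26 genes, Cyp26a1 was at 0.802 ± 0.379 and 1.79 ± 0.51 CPM (log2 -1.12, edgeR adjusted p = 0.0608, with the block 0.00408), and Cyp26c1 differed by -0.05 (edgeR adjusted p = 0.925).

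Of the receptors, 5 were tested. Rara, the widely expressed retinoic acid receptor, stood at 36.8, 37.4 and 36.8 CPM in HA-NUR77 and at 52.1, 48.0 and 48.6 CPM in GFP. The HA-NUR77 values were almost equal and all below GFP, and Rara fell by 0.42 on the log2 scale (SE 0.07, edgeR adjusted p = 0.00494). Rxrb, a partner of many nuclear receptors, rose from 37.4 ± 1.83 to 46.3 ± 1.84 CPM (log2 0.31, edgeR adjusted p = 0.0202), which did not pass without HA-NUR77 replicate 1 (0.0721) or 3 (0.055) or when GFP replicate 1 was left out (0.0727). Rarg was at 110 ± 12.1 and 132 ± 9.55 CPM in HA-NUR77 and GFP (log2 -0.26, edgeR adjusted p = 0.0815, with the block 0.00185), Rxra differed by -0.16 (0.142) and Rarb by -0.74 (0.328). Rxrg, with 2 reads in HA-NUR77 and 6 in GFP, could not be tested.

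Of the 6 corepressors and coactivators tested, 3 fell and 0 rose by edgeR, DESeq2 or limma-voom, with 1 higher at an unadjusted edgeR p under 0.05. All tested genes gave 13.2% lower and 25.6% called. With the block 4 of the 6 were called lower and 1 higher, Nrip1 (edgeR adjusted p = 0.0145). Over all tested genes the block called 24.6% lower and 23.5% higher. The coactivator Ncoa1 was at 48.0, 49.1 and 46.6 CPM in HA-NUR77 and at 61.7, 61.8 and 61.7 CPM in GFP, a log2 difference of -0.37 (edgeR adjusted p = 0.0059). The corepressor Ncor1 fell by 0.32 and the coactivator Ncoa2 by 0.28 on the log2 scale (edgeR adjusted p = 0.0151 and 0.0194). The Ncor1 call ended without HA-NUR77 replicate 1 (0.0546), also when GFP replicate 1 was left out (0.0551), and that of Ncoa2 in 4 of the 6 fits that left out 1 library.

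Of the listed genes known to respond to retinoic acid, members left out, 13 were tested: 1 rose, 2 fell and the median log2 difference was -0.05. The share called was 23.1%, beside 25.6% of all tested genes. With the block 4 were called higher and 4 lower, beside 23.5% and 24.6% of all tested genes. Stra6, described above, was among those that fell. Rarres2, which encodes the secreted protein chemerin, rose from 1.13, 1.37 and 1.15 CPM in GFP to 2.48, 3.28 and 2.73 CPM in HA-NUR77, a log2 difference of 1.22 (SE 0.21, edgeR adjusted p = 0.00732). Its groups did not overlap. Tgm2 differed by -0.05 (edgeR adjusted p = 0.729). The members on this list that were left out of its counts, Dhrs3, Crabp2 and Cyp26b1, differed by -0.62, -0.78 and -0.87. Of them only Crabp2 passed the edgeR test. Stra8, Rarres1 and Hoxb1 had no read.

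**Figure D4:**
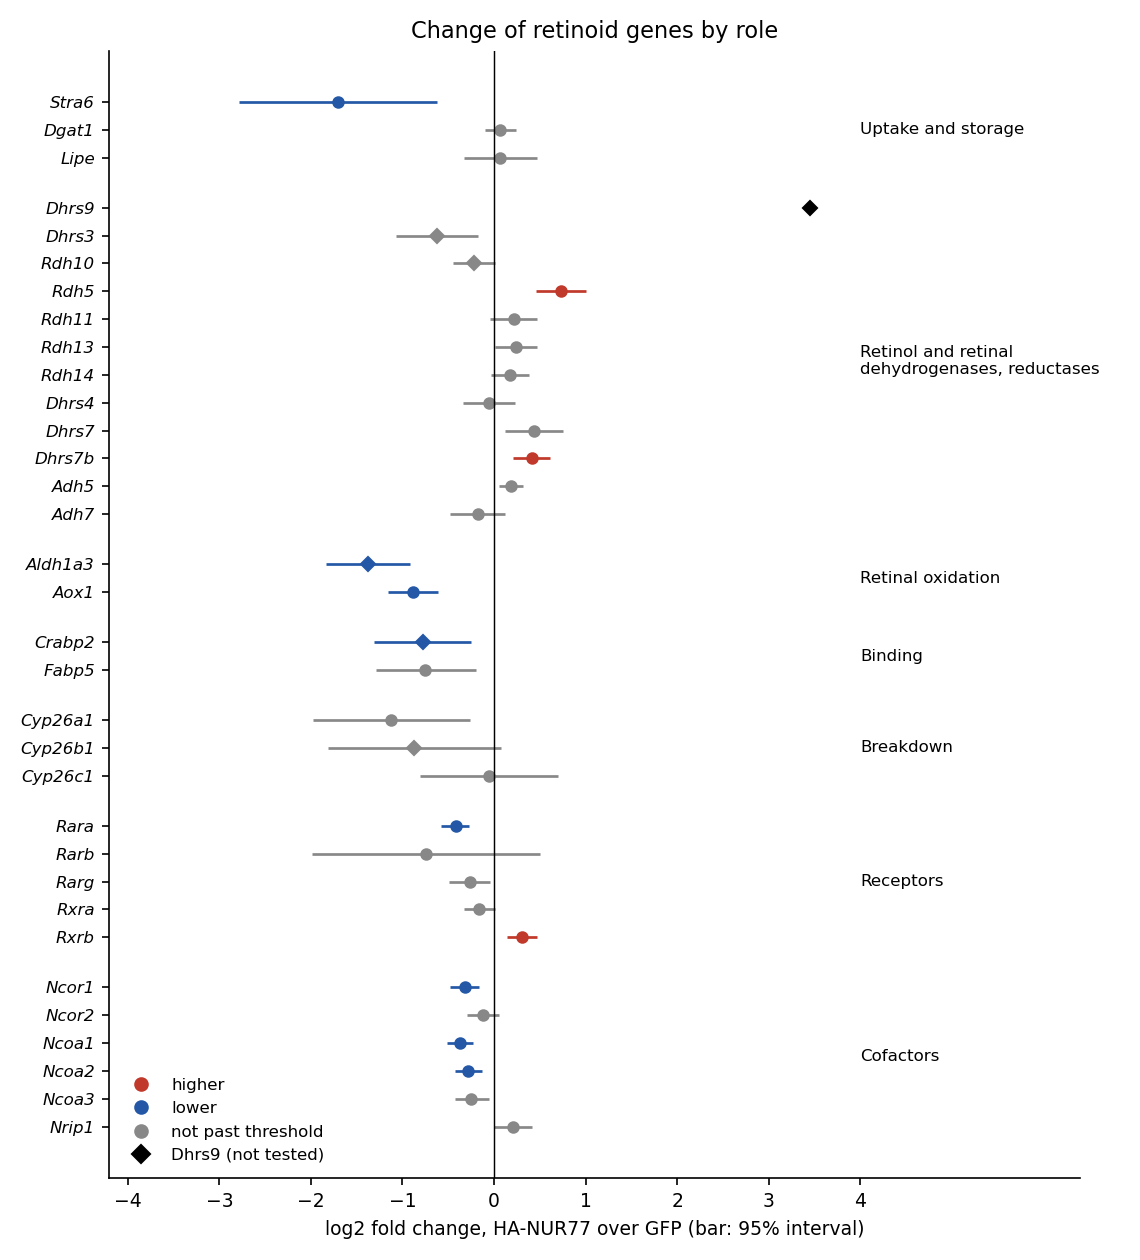
Log2 difference (HA-NUR77 minus GFP) of tested members (diamonds) and pathway genes (circles), ordered by role from uptake to cofactors, with 95% intervals; red and blue mark genes higher or lower at an adjusted p under 0.05 in edgeR, grey those not past it, and Dhrs9 is drawn with no interval because it was chosen for this value. Apart from Dhrs9 at 3.45, the points shown run from -1.70 for Stra6 to 0.73 for Rdh5.

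Of the protein-coding genes within 500 kb of Dhrs9, 16 in all, 12 were tested. Of these 3 fell, beside 13.2% of all tested genes lower and 25.6% called in either direction, and 0 rose in edgeR's test, by DESeq2 or by limma-voom, with 1 higher at an unadjusted edgeR p under 0.05. Klhl23, 417411 bases after Dhrs9, fell the most, with a log2 difference of -1.29 (edgeR adjusted p = 0.00246). Ccdc173 and Ppig fell by 0.62 and 0.47 on the log2 scale (edgeR adjusted p = 0.0349 and 0.0471). Leaving out 1 library ended the Ccdc173 call in 6 of 6 fits (adjusted p from 0.0552 to 0.119) and the Ppig call in 5 of 6 (up to 0.133, and 0.0394 in the one that kept it), and upper-quartile factors ended that of Ppig (0.0505). With the replicate block Klhl41 was also called higher (edgeR adjusted p = 2.6e-05) and Ssb lower (0.00172). The nearest genes on each side had almost no reads. Lrp2, 19807 bases after Dhrs9, had 3 reads in each group, and Abcb11, 37829 bases before it, had 13 in HA-NUR77 and 3 in GFP. No gene in the count tables overlapped the span of a member.

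**Figure D5:**
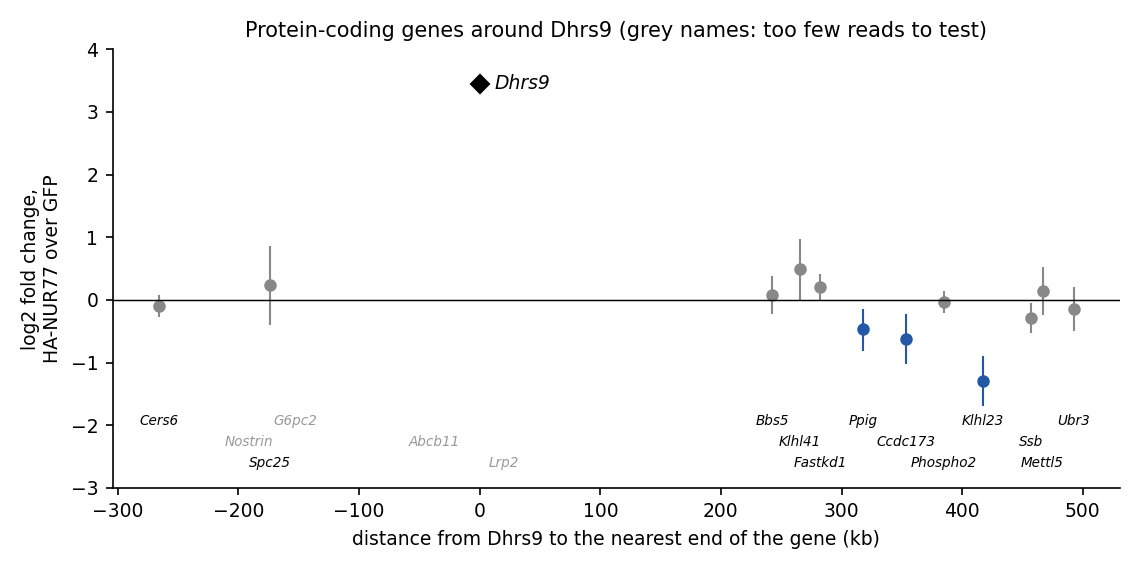
Log2 difference (HA-NUR77 minus GFP) of the protein-coding genes within 500 kb of Dhrs9, by distance from it in kb; bars are 95% intervals, blue points were lower at an adjusted p under 0.05 in edgeR, grey points did not pass, and grey names had too few reads to be tested. Dhrs9 stands alone at 3.45, and Klhl23 at -1.29 is the lowest.

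Genes with the pattern most like Dhrs9 over the 6 libraries were found by the root mean square difference of log2 values centred on the GFP mean, computed as log2 of CPM plus 0.5. The 5 closest were Cdsn at 0.289, Lman1l at 0.319, Serping1 at 0.32, Clca4b at 0.34 and Perm1 at 0.433. Their Pearson correlations with Dhrs9 over the 6 libraries were between 0.958 and 0.982, over points that share the split into 2 groups, and this is a description. Cdsn, which encodes the skin adhesion protein corneodesmosin, stood at 9.82, 9.87 and 11.5 CPM in HA-NUR77 and 0.534, 1.10 and 1.08 CPM in GFP. Clca4b, at 8.22, 1.88 and 4.09 CPM in HA-NUR77, had the same order of replicates in that group as Dhrs9 at 15.4, 8.03 and 11.9 CPM. In GFP the order differed, with Clca4b at 0.0593, 0.0687 and 0.135 CPM and Dhrs9 at 0.771, 1.44 and 1.01 CPM. These Clca4b values lie below the 0.5 added to CPM, and its fitted log2 difference was 5.65 against 3.45 for Dhrs9.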

How the data were processed

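The deposited files were 1 table per library of read counts per Ensembl gene, not normalised by the authors. Per the submitters' processing notes, TopHat2 2.1, HTSeq and DESeq2 were named, with genome build mm10. The annotation release and strand setting of the counting are not given in the sources used here. Symbols, coordinates and exon-union lengths came from GENCODE M21 on GRCm38 and matched 22872 of the 23154 IDs.

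Counts were tested with edgeR 4.0.16 in R 4.3.3 (quasi-likelihood, TMM, group as the term) on genes kept by filterByExpr at a minimum count of 10, with Benjamini-Hochberg adjustment over all 12509. SE is the absolute log2 difference over the square root of F. CPM are counts over the total in tested genes times the TMM factor. Intervals of log2 differences come from the edgeR fit, and exact intervals of read ratios cover counting error only. The test was also run on simulated counts. Those libraries were drawn independently, so that run does not cover the shared deviations of same-numbered libraries. Alternatives were DESeq2 1.42.0, its size factors, limma-voom (limma 3.58.1), filters of none and 30, the block, and each library left out.

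Deviations from the group means correlated at 0.25, 0.551 and 0.475 in the same-numbered pairs, all above 0.1. In the other pairs they ran from -0.437 to -0.055. The main fit did not use the numbers, and a fit with the number as a block was run as an alternative. The pairing by number comes from the data, not from a label. No 2 libraries agreed within sampling noise. Members and lists were chosen with earlier results of these data known. Named genes were the members, up to 4 genes past the threshold of each list (or its most abundant), the RAR and RXR genes, Nr4a1, the neighbours, the 5 genes most like Dhrs9 and, of each marker list, the most abundant and up to 2 past the threshold. Others in the text were chosen after their values were seen. A comparison of protein sequences was not made. Results of some listed genes are not reported here, though they are in the counts of their lists.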

Additional observations from a re-analysis of the deposited data

How the results depend on the processing

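Aldh1a3 was lower and past the threshold under every alternative run, and Dhrs9 kept a log2 difference between 3.21 and 3.72. Of the 5 tested members other than Dhrs9, the number called lower went from 2 to 1 with no filter on low counts and to 5 with the replicate block, and was 1 to 2 when 1 library was left out. The pathway list went from 4 higher and 7 lower to 11 and 12 with the replicate block, and to 2 to 5 higher and 4 to 9 lower without 1 library. Over all genes the counts of 1549 higher and 1655 lower became 2942 and 3071 with the block, and 642 to 1489 and 850 to 1572 without 1 library, where fewer samples enter the fit. The other causes were not tested. Some genes that did not pass the test changed sign when 1 library was left out. Their log2 differences ran from -0.07 to 0.17 for Lipe, -0.13 to 0.05 for Dhrs4, -0.15 to 0.06 for Cyp26c1, -0.09 to 0.03 for Tgm2, -0.09 to 0.03 for Meis1, -0.01 to 0.19 for Bbs5, -0.08 to 0.0 for Phospho2 and -0.08 to 0.44 for Nr4a1. The fit with the block has 2 residual degrees of freedom, against 4 without. Aldh1a1, Aldh1a2, Crabp1 and Rdh12 had too few reads to be tested.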
